A study of Mus musculus with 48 samples.

Results

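TRBJ2-3 and TRBJ2-4 are neighbouring joining (J) segments of the mouse T cell receptor β chain. The clones described here were all rows of the deposited clone tables whose J call was either segment. The segments were chosen by their shares of reads, which differed between mice, so the shares of reads are given as a description, without a test, and nothing rests on them. Of 959731 clone rows in 48 libraries, 81583 (8.5%) carried TRBJ2-3 and 83248 (8.67%) carried TRBJ2-4. Counted as distinct clones, meaning a V segment, a J segment and a CDR3 nucleotide sequence, these were 64916 and 65065 of 744876.

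Each β chain is assembled in the thymus by joining a variable (V), a diversity (D) and a J segment, with bases trimmed from the ends and others added between them. The join encodes CDR3, the loop that contacts the antigenic peptide, and the J segment supplies its end. All daughters of a T cell carry the same join, so the CDR3 nucleotide sequence serves as a label of the clone, and a segment that many different clones use can still rise in reads through a single expanded clone. The mouse β locus holds a pair of D-J-C clusters, and both segments lie in the second.

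In the GRCm38 build of the mouse genome (GENCODE M21 annotation), Trbj2-3 (ENSMUSG00000076494.1) lies at chr6:41543223-41543271 and Trbj2-4 (ENSMUSG00000076495.1) at chr6:41543362-41543410, both on the plus strand, as J coding segments with 90 bases between them. The germline sequences are given because the capitals are what a clone can inherit into its CDR3.
TRBJ2-3: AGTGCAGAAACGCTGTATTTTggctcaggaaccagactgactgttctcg
TRBJ2-4: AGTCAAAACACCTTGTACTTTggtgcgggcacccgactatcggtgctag
The capitals mark the 21 bases up to the end of CDR3. Counted from 1 at the first base, the segments differed there at 7 positions, as G4C, C5A, G7A, A9C, G12C, C13T and T18C (the TRBJ2-3 base first), and over the whole 49 bases at 17.

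The libraries came from 4 female C57BL/6 mice, 8 weeks old and numbered 5 to 8, with no treatment named in the labels, that carried a Lewis lung carcinoma (LLC, a mouse lung tumor line) on each side of the back. The p-values rest on these 4 mice. On day 13 each tumor was divided into 2 fragments, from which CD8+ and CD4+ T cells were sorted (16 libraries of each). CD44hi (high CD44) CD8+ and CD4+ T cells were sorted from the draining lymph node (dLN) of each side (8 libraries of each). Cells labelled by an intravenous antibody were gated out. The dLN gate asked for CD44hi and the tumor gate did not, so a difference between tumor and dLN cannot be told apart from a difference of the gates. The tables hold no marker genes, so the sorted subsets were not checked against other genes. Each library was drawn to 6 reads per sorted cell, 131070 to 2035380 reads. The fragments of a tumor were added, and the value of a mouse is the mean of its left and right side, giving 4 mice per group.

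A pair of libraries stood apart by the clones they shared. The CD8+ dLN libraries of the left side of mouse 5 and the right side of mouse 8 had 1377 clones in common, against 614 to 1203 in the 23 other pairs of CD8+ dLNs from different mice. Those with TRBJ2-4 made up 1.46% and 3.27% of all reads of these libraries, and those with TRBJ2-3 0.447% and 0.551%. The leading one, a TRBV19 clone with TRBJ2-4, made up 0.778% of reads in mouse 5 and 1.75% in mouse 8 and was at 0 in the dLN of the other side of both. How the clones came to be in both libraries was not tested. Without the clones in common the TRBJ2-4 share of reads of those libraries went from 9.72% to 8.82% and from 11.2% to 8.79%, within the 8.53% to 8.84% of the other CD8+ dLNs. For TRBJ2-3 they went from 9.15% to 9.28% and from 9.13% to 9.55%. Each test that uses CD8+ dLNs was repeated without these clones and without these libraries.

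In percentage points, the widest spread between mice was in CD8+ tumors for TRBJ2-3 and in CD4+ tumors for TRBJ2-4. In CD8+ tumor T cells the TRBJ2-3 share of reads was 19.4% in mouse 5, 13.0% in mouse 6, 4.96% in mouse 7 and 4.55% in mouse 8. Mice 5 and 6 were high, mice 7 and 8 were low, and the left and right tumors of a mouse differed by at most 0.540 percentage points. The 2 fragments of a tumor differed by more, by 1.67 points on average and by up to 3.49 in the left tumor of mouse 5 (17.2% and 20.7%), and in every fragment mice 5 and 6 were above mice 7 and 8. The distance between the highest and the lowest mouse, 14.9 percentage points, ranked 2 of the 12 J segments. Outside the CD8+ tumors the range was narrower: 9.10% to 9.69% in CD8+ dLNs, 6.72% to 8.07% in CD4+ tumors and 8.64% to 9.27% in CD4+ dLNs. The range in CD8+ dLNs, 0.589 percentage points, was 1.15 without the libraries that shared clones, where mouse 8 is its left dLN alone (10.2%), and 0.126 without mouse 8. Mice 5 and 6, with the high CD8+ tumor shares, had CD8+ dLN shares of 9.13% and 9.22%, next to the 9.10% and 9.69% of mice 7 and 8.

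The TRBJ2-4 share of reads in CD4+ tumor T cells was 13.1% in mouse 5, 9.58% in mouse 6, 18.6% in mouse 7 and 11.6% in mouse 8, the widest range of the 12 J segments at 9.03 percentage points. Mouse 7 stood highest on both sides, with 19.3% and 17.9% in its left and right tumors, where fragments of a tumor differed by up to 2.44 points. In CD4+ dLNs the values were 13.1%, 10.0%, 11.7% and 10.8% for mice 5 to 8, so mouse 5 and not mouse 7 was highest there. In CD8+ tumors TRBJ2-4 was low in every mouse, at 3.23%, 2.59%, 4.19% and 5.08%. As a ratio its spread was alike in both tumor groups, the highest mouse being 1.96 times the lowest in CD8+ and 1.94 times in CD4+ T cells.

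**Figure D1:**
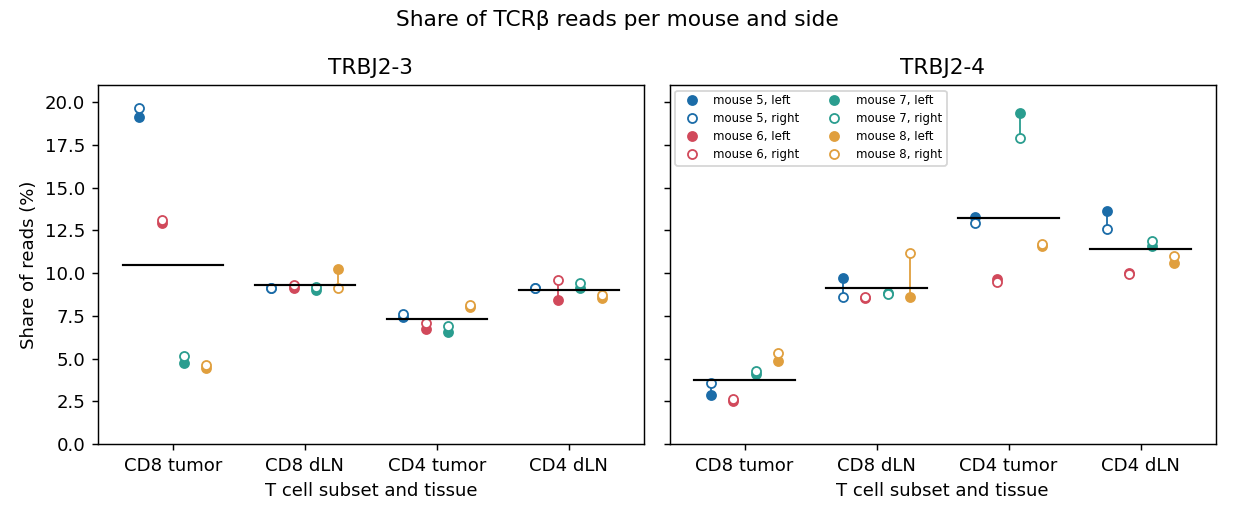
Share of TCRβ reads (y axis, percent) of TRBJ2-3 (left panel) and TRBJ2-4 (right panel) in the 4 groups (x axis), with filled points for the left side, open points for the right side, a colour per mouse and a black line at the mean of 4 mice. TRBJ2-3 in CD8+ tumors runs from 4.55% to 19.4% between mice while both sides of each mouse lie close together, and TRBJ2-4 in CD4+ tumors is highest in mouse 7.

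Between tumor and dLN, the TRBJ2-4 share of reads in CD8+ T cells was lower in the tumors of all 4 mice, 3.77% ± 1.09 (SD, n = 4) against 9.11% ± 0.571, a ratio of 0.414. The groups did not overlap, as was the case for 33.3% of J segments and in this direction for 25%. Against CD4+ tumors (13.2% ± 3.87) it was lower without overlap too, as for 16.7% of J segments, and 25% in either direction. In CD4+ T cells, the TRBJ2-3 share was 7.30% ± 0.616 in tumors and 9.02% ± 0.272 in dLNs. These groups did not overlap either, and TRBJ2-3 was the only J segment for which they did not (8.33% of the 12).

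The reads behind the CD8+ tumor spread of TRBJ2-3 belonged to a few clones. Of 78 clones above 1% of reads in a CD8+ tumor, over all J segments, 11 used TRBJ2-3 and 2 used TRBJ2-4; of 14 such clones in CD4+ tumors, 4 used TRBJ2-4 and 0 used TRBJ2-3. In mouse 5, 6 clones above 1% carried 16.9% of all CD8+ tumor reads, and the 10 most frequent clones held 90.9% of the reads of the segment. In mouse 6, 4 clones carried 8.55%. Mouse 7 had 0 such clones and mouse 8 had 1, with 1.76%. The other TRBJ2-3 clones held 2.48%, 4.47%, 4.96% and 2.79% of all CD8+ tumor reads in mice 5 to 8. All reads include the clones above 1%, so the order of the mice is not read from these values.

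The 11 TRBJ2-3 clones above 1% in CD8+ tumors are printed with their CDR3, from the codon of the conserved cysteine on, because their bases show that they were separate joins. Capitals mark the bases that the submitters' alignment placed in the J segment, which can begin up to 3 bases before the annotated start.
mouse 5, TRBV4, first: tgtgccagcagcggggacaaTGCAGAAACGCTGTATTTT
mouse 5, TRBV5, first: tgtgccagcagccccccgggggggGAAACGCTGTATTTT
mouse 5, TRBV5, second: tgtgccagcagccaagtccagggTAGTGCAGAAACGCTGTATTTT
mouse 5, TRBV4, second: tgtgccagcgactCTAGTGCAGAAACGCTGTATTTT
mouse 5, TRBV2: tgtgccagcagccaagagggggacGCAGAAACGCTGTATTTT
mouse 5, TRBV19: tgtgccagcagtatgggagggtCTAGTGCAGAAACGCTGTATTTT
mouse 6, TRBV13-1: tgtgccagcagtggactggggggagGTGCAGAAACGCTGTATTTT
mouse 6, TRBV5, first: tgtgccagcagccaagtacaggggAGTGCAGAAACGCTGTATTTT
mouse 6, TRBV13-2: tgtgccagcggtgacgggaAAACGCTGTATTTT
mouse 6, TRBV5, second: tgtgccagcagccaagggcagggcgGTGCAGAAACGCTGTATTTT
mouse 8, TRBV31: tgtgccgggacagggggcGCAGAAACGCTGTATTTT
Their CDR3s were 11 to 15 codons long, and they used 7 V segments.

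The first TRBV4 clone of mouse 5 made up 6.24% of CD8+ reads in the left tumor and 5.69% in the right. The first TRBV5 clone of that mouse made up 5.70% and 5.45%, and its second TRBV5 clone 1.32% and 2.04%. These 3 clones alone carried more reads than the whole segment did in mouse 7 or 8. In mouse 6 the TRBV13-1 clone led, with 3.60% and 4.40%. The first TRBV5 clone of mouse 6 was at 1.95% and 2.10%. In mouse 8 the TRBV31 clone was at 1.61% and 1.91%, and in mouse 7 the highest TRBJ2-3 clone, also with TRBV31, was at 0.271% and 0.513%. All 11 were found in all 4 fragments of their mouse, and the largest left to right ratio among them was 2.02.

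The same clones were then looked up in the dLN. All 11 were found in a dLN of their mouse, at a mean of 0.00492% to 0.0519% of CD8+ reads over both sides. They were chosen by their share in a tumor, which fixes the direction of the difference, so no ratio to the dLN is read. The first TRBV4 clone of mouse 5 was at 0.0958% in the left dLN and 0.0081% in the right. By the mean of both sides it was the highest TRBJ2-3 clone in the CD8+ dLNs of that mouse. The TRBV31 clone of mouse 7 was in neither dLN, where 3 reads would be 0.000825% and 0.000561%. In the CD4+ tumor libraries of their own mouse the 11 clones reached at most 0.00834%.

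Mice 5 and 6 shared a CDR3 by different joins. The second TRBV5 clone of mouse 5 and the first TRBV5 clone of mouse 6, encode the same 15 residues, and over 45 bases they differ as C18A and T24G (mouse 5 base first, counted from 1 at the first base of the CDR3). This amino acid sequence, carried by these 2 nucleotide sequences only in CD8+ T cells, made up 1.68% of CD8+ tumor reads in mouse 5 and 2.02% in mouse 6, and it was at 0 in the tumors and dLNs of mice 7 and 8. Its dLN level was 0.0353% in mouse 5 and 0.00690% in mouse 6. A TRBV16 clone with TRBJ2-3 of 14 codons had the same nucleotide sequence in both mice.
mice 5 and 6, TRBV16: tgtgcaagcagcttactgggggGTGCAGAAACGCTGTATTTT
It was at 0.255% and 0.156% in the left and right CD8+ tumors of mouse 5 and at 0.887% and 0.537% in those of mouse 6. Its amino acid sequence, from 3 nucleotide sequences, was found in 13 of 16 CD8+ samples. In mice 7 and 8 it was at 0.000773% and 0.000753% in tumors and at 0.00399% and 0.000503% in dLNs.

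**Figure D2:**
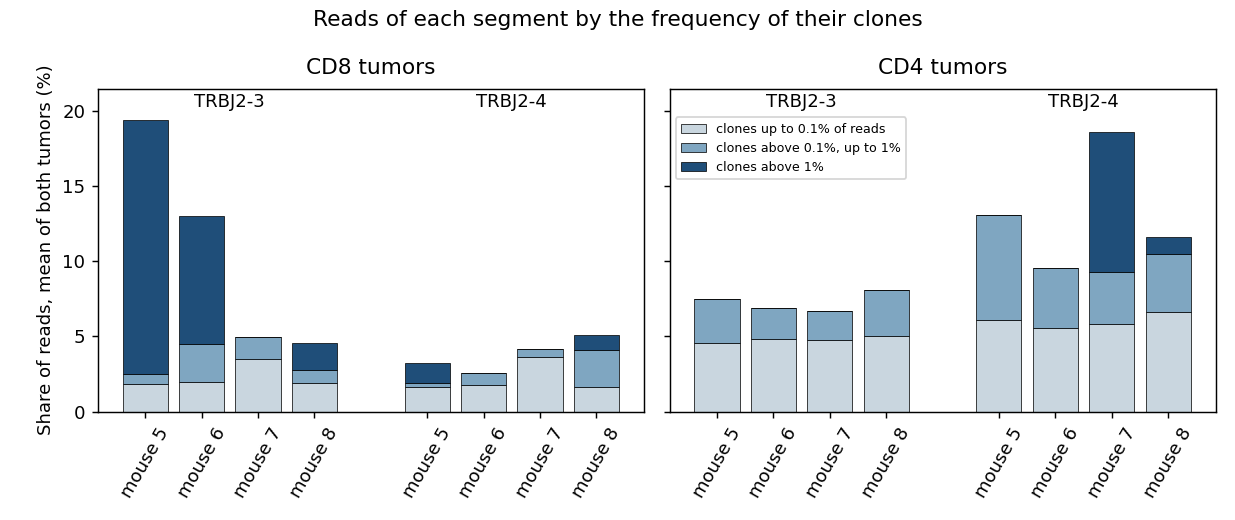
Share of reads (y axis, percent, mean of both tumors of a mouse) of TRBJ2-3 and TRBJ2-4 in CD8+ (left panel) and CD4+ (right panel) tumors of mice 5 to 8, with each bar divided by how frequent the clones are in the more frequent tumor. In CD8+ tumors clones above 1% make up 16.9 of the 19.4% of TRBJ2-3 in mouse 5, while clones up to 0.1% hold 1.83% to 3.51% in the 4 mice.

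The rarer clones of both segments took a larger share of CD8+ tumor reads in mouse 7 than in the other mice. Over all J segments the CD8+ tumor libraries of mouse 7 held 39045 to 45586 clones per fragment, against 8232 to 27686 in the other mice, and the part of this in the shares was not tested. Clones at or below 0.1% of reads in both tumors carried 1.83%, 1.99%, 3.51% and 1.92% of CD8+ tumor reads for TRBJ2-3, and 1.64%, 1.80%, 3.67% and 1.63% for TRBJ2-4. Mouse 7 had 0 CD8+ tumor clones above 1% with either segment. In CD4+ tumors the same class held 4.55% to 5.06% for TRBJ2-3 and 5.55% to 6.61% for TRBJ2-4.

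In mouse 7 a few clones carried much of the CD4+ tumor share of TRBJ2-4. There 3 clones above 1% carried 9.34% of reads, mouse 8 had 1 with 1.18%, and mice 5 and 6 had 0. The other TRBJ2-4 clones held 13.1%, 9.58%, 9.27% and 10.5% of all CD4+ tumor reads in mice 5 to 8. All reads include the clones above 1% here too, so the order of the mice is not read. Mouse 5, with 0 clones above 1%, was at 13.1%. The 4 clones, and the 2 TRBJ2-4 clones above 1% in CD8+ tumors, were the following.
CD4+, mouse 7, TRBV4: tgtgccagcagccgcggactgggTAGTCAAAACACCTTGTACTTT
CD4+, mouse 7, TRBV13-2: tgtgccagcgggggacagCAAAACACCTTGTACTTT
CD4+, mouse 7, TRBV20: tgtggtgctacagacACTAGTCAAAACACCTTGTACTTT
CD4+, mouse 8, TRBV13-1: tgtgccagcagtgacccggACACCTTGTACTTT
CD8+, mouse 5, TRBV31: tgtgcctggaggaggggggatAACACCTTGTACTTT
CD8+, mouse 8, TRBV13-1: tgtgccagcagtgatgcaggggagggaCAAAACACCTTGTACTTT
The capitals again mark the J bases, 14 to 24 of them in the CD4+ clones.

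The TRBV4 clone of mouse 7 was at 5.96% of CD4+ reads in the left tumor and 5.83% in the right, and at 0.269% and 0.210% in the left and right dLN. It was the second most frequent CD4+ clone on both sides. The TRBV13-2 clone was at 2.82% and 1.44%, the widest left to right difference of the 4, and was in neither dLN, where 3 reads would be 0.00118% and 0.000954%. The TRBV20 clone was at 1.29% and 1.34%. In mouse 8 the TRBV13-1 clone led all CD4+ clones of the left tumor at 1.29% and was at 1.08% in the right. Of the CD8+ clones, TRBV31 of mouse 5 was at 1.2% and 1.48% and made up 41.5% of the TRBJ2-4 reads of its tumors. The TRBV13-1 clone of mouse 8 was at 1.03% and 0.976% and in neither dLN, where 3 reads would be 0.000767% and 0.000603%.

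A TRBV1 CDR3 with TRBJ2-4 recurred in CD4+ T cells of all mice. TRBV1 with TRBJ2-4 and a CDR3 of 12 codons was found, as 1 amino acid sequence, in all 16 CD4+ tumor and dLN samples, carried by 13 nucleotide sequences. Its mean share of 0.376% ranked 2 among the 10 amino acid sequences of any J segment found in all 16 samples. These 4 of its nucleotide sequences passed 0.1% of reads in a tumor, and they are shown because they differ at the V-J join, in positions 15 and 18 of 36, where 18 is a J base in some and not in others.
mice 5, 6 and 7: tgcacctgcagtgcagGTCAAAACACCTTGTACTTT
mouse 5: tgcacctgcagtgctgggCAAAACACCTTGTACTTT
mouse 6: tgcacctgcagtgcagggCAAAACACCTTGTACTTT
mouse 6, another: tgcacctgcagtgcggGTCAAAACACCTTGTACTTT
Relative to the first, the others differ as A15T with T18G, as T18G, and as A15G. Summed over variants the sequence was at 0.646%, 0.931%, 0.220% and 0.127% of CD4+ tumor reads in mice 5 to 8 and at 0.434%, 0.262%, 0.2% and 0.186% of dLN reads. Tumors and dLNs overlapped, with mice 5 and 6 above mice 7 and 8 in both.

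A further TRBV1 sequence of 15 codons with TRBJ2-3 was in all 16 CD4+ samples at a mean of 0.1003%. A TRBV3 clone with TRBJ2-3, of identical nucleotide sequence in mice 7 and 8, was the highest TRBJ2-3 clone of their CD4+ dLNs, at 0.224% and 0.143% in its left and right dLN in mouse 7 and at 0.283% and 0.387% in those of mouse 8.
mice 7 and 8, TRBV3: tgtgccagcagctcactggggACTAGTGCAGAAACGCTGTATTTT
In CD8+ T cells the most frequent such sequence of the segments was TRBV13-2 with TRBJ2-3, of 15 codons, in all 16 samples and from 28 nucleotide sequences, and it ranked 2 by mean share over all J segments. Its median was 0.0482% in dLNs and 0.00404% in tumors, and the lowest dLN (0.0336%) was above the highest tumor (0.0105%). Of the 48 CD8+ sequences found in all 16 samples, 5 used TRBJ2-3 and 1 used TRBJ2-4. Over all sequences of a segment, 11.2% (TRBJ2-3) and 10.6% (TRBJ2-4) were found in at least 2 mice in CD8+ T cells, ranks 7 and 8 of the 12 J segments, and 7.62% and 7.83% in CD4+ T cells, ranks 7 and 6.

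The share of distinct clones, which counts each clone once whatever its reads, was a measure that the choice of the segments did not use. In CD8+ tumors it was 8.41% ± 0.0796 for TRBJ2-3 (SD, n = 4), from 8.32% to 8.51% between mice. The highest mouse was 4.26 times the lowest by reads there and 1.02 times by distinct clones. Mouse 5 had the lowest TRBJ2-3 share of distinct clones of the 4 mice and the highest share of reads. In CD8+ dLNs the share was 8.59% ± 0.285, in CD4+ tumors 8.10% ± 0.325 and in CD4+ dLNs 8.99% ± 0.237. For TRBJ2-4 the values in the same order were 8.31% ± 0.177, 8.34% ± 0.106, 9.64% ± 0.324 and 9.94% ± 0.307. The share of TRBJ2-3 in CD8+ tumors had the lowest coefficient of variation between mice of the 12 J segments, and its share of reads the third highest.

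**Figure D3:**
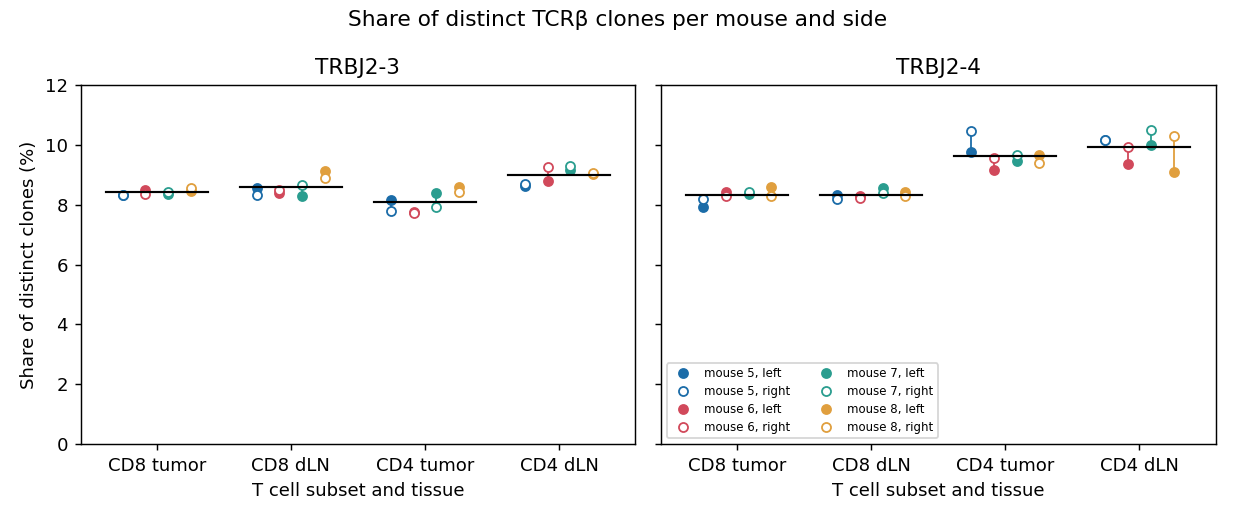
Share of distinct clones (y axis, percent) of TRBJ2-3 and TRBJ2-4 in the 4 groups (x axis), drawn as in the plot of shares of reads. The CD8+ tumor points of TRBJ2-3 lie between 8.32% and 8.57%, and TRBJ2-4 is higher in CD4+ than in CD8+ T cells in tumors and dLNs.

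TRBJ2-4 made up a smaller share of the distinct clones of CD8+ than of CD4+ T cells, and TRBJ2-3 a smaller share in CD4+ tumors than in CD4+ dLNs. Differences of log2 shares were tested with limma over the 12 J segments, with p adjusted by Benjamini and Hochberg. CD8+ minus CD4+ was -0.21 (SE 0.026) for TRBJ2-4 in tumors (adjusted p = 9.12e-07) and -0.25 (SE 0.026) in dLNs (adjusted p = 8.11e-08), where 83.3% of J segments were called in each comparison. The 4 mice of each subset did not overlap. For TRBJ2-3, CD4+ tumor minus CD4+ dLN was -0.15 (SE 0.028, adjusted p = 1.97e-04), again beside 83.3% of J segments, and 0.0686 by the exact permutation test. CD8+ tumor minus CD8+ dLN was -0.03 for TRBJ2-3 (95% interval -0.09 to 0.03, adjusted p = 0.423) and -0.00494 for TRBJ2-4 (95% interval -0.06 to 0.05, adjusted p = 0.850), in a comparison that called 66.7% of J segments. The tumor to dLN difference of TRBJ2-3 differed between CD8+ and CD4+ T cells by 0.12 (SE 0.040, adjusted p = 0.0123), beside 66.7% of J segments. That call was lost without mouse 6 (adjusted p = 0.132) or mouse 7 (adjusted p = 0.0873).

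The smaller differences depended on the fit. CD8+ dLN minus CD4+ dLN was -0.07 for TRBJ2-3 (adjusted p = 0.0413) and was not called without mouse 6 (adjusted p = 0.144), without mouse 7 (adjusted p = 0.246) or without the libraries that shared clones (adjusted p = 0.0598). CD8+ minus CD4+ tumor was 0.06 for TRBJ2-3 (adjusted p = 0.0739) and was called with the mouse as a replicate block (adjusted p = 0.0285). CD4+ tumor minus CD4+ dLN was -0.04 for TRBJ2-4 (adjusted p = 0.113) and was called without mouse 5 (adjusted p = 0.0441).

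Over the 16 values of 4 mice in 4 groups, the J segments whose share of distinct clones was most like that of TRBJ2-4 were TRBJ1-3 (Pearson r = 0.95) and TRBJ1-4 (r = 0.84). For TRBJ2-3 they were TRBJ2-5 (r = 0.64) and TRBJ1-6 (r = 0.39). The points share libraries and mice, and the shares of a library add to 100%.

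V partners were described first by their share of the distinct clones of a segment. In CD8+ tumors TRBV12-2 was the leading partner of both segments, in 10.3% ± 0.495 of TRBJ2-3 clones and 14.4% ± 0.606 of TRBJ2-4 clones. TRBV3 and TRBV13-2 followed, with 9.11% and 8.99% of TRBJ2-3 clones and 8.43% and 8.62% of TRBJ2-4 clones. In CD8+ dLNs TRBV13-2 and TRBV16 led, with 10.9% and 8.97% of TRBJ2-3 clones and 9.67% and 9.53% of TRBJ2-4 clones. In CD4+ T cells TRBV13-2 led in tumors and dLNs, up to 18.1% ± 1.44 of TRBJ2-4 clones in tumors. The third partner was TRBV12-1 (7.59% of TRBJ2-3 clones) and TRBV12-2 (8.35% of TRBJ2-4 clones) in CD8+ dLNs. In CD4+ dLNs TRBV3 and TRBV5 followed for TRBJ2-3 (9.92% and 9.66%) and TRBV1 and TRBV3 for TRBJ2-4 (9.55% and 9.12%).

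By reads the partners were those of the large clones. TRBV5 held 39.7% of the TRBJ2-3 reads of CD8+ tumors in mouse 5, 31.2% in mouse 6, 2.58% in mouse 7 and 4.47% in mouse 8, but 4.82% ± 0.2 of distinct clones. TRBV31 held 39.3% of them in mouse 8 and 0.15% in mouse 5. Of TRBJ2-4 reads in CD8+ tumors, TRBV31 held 42.3% in mouse 5 and at most 1.46% in the other mice.

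The partners favoured or avoided by each segment were tested next. For each V segment with at least 20 expected clones, the log2 ratio of its share among the distinct clones of the segment to that among all other clones was tested with limma in each group over all V-J pairs. In CD8+ dLNs, 10 of 19 pairs were called for each segment, beside 65.6% of all pairs, and for TRBJ2-4 6 without mouse 5 and 5 without mouse 7. In CD8+ tumors 10 of 19 (TRBJ2-3) and 9 of 19 (TRBJ2-4) were called, beside 60.2%. In CD4+ dLNs 6 of 18 and 5 of 18 were called, beside 38.5%. There TRBJ2-3 had 3 without mouse 5, 3 without mouse 7 and 2 without mouse 8, and TRBJ2-4 had 2 without mouse 7 and 3 without mouse 8. In CD4+ tumors 2 of 15 and 1 of 18 were called, beside 27.3%, with 1 for TRBJ2-3 without mouse 6, 7 or 8 and 0 for TRBJ2-4 without mouse 6 or 7. The counts of both segments were thus at or below the share of all pairs.

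V segments called in at least 3 groups with the same J segment were TRBV4, TRBV1, TRBV31, TRBV29, TRBV13-2 and TRBV5. Their calls with that J segment made 28 combinations of a V segment, a J segment and a group. Of these, 11 stayed called with each mouse left out in turn and 17 did not. TRBV4 was raised with TRBJ2-4 in CD4+ dLNs by 0.42 (SE 0.059, adjusted p = 0.00164) and lowered there with TRBJ2-3 by -0.40 (adjusted p = 0.00405), and both calls held without each mouse. In CD8+ T cells TRBV4 was raised with TRBJ2-3, by 0.23 in dLNs (adjusted p = 0.00383) and 0.30 in tumors (adjusted p = 0.0041), and these held as well. With TRBJ2-4 it was higher in CD4+ tumors (0.37), CD8+ dLNs (0.20) and CD8+ tumors (0.17), with adjusted p of 0.0251 to 0.0390 that rose to 0.0705, 0.111 and 0.135 with 1 mouse left out.

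Of these V segments, the other calls that held without each mouse were in CD8+ T cells. With TRBJ2-3, TRBV29 was lowered in dLNs (-0.29, adjusted p = 0.00138) and tumors (-0.28, adjusted p = 0.00189), TRBV13-2 was raised in dLNs (0.28, adjusted p = 0.000945) and TRBV31 in tumors (0.29, adjusted p = 0.00219). With TRBJ2-4, TRBV5 was lowered in dLNs (-0.21, adjusted p = 0.0044) and tumors (-0.36, adjusted p = 0.000615), and TRBV1 in dLNs (-0.21, adjusted p = 0.00482). TRBV29 was lowered with TRBJ2-4 too, in dLNs (-0.37, adjusted p = 1.84e-04) and tumors (-0.37, adjusted p = 0.0146, up to 0.0492 on leaving out a mouse). The calls of TRBV29 with TRBJ2-4 lie outside the combinations counted above.

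TRBV12-2, the leading partner in CD8+ tumors, was called there in opposite directions. It was lower with TRBJ2-3 than with other J segments (10.3% against 12.4% of clones, log2 ratio -0.27, adjusted p = 0.00182) and higher with TRBJ2-4 (14.4% against 11.998%, 0.26, adjusted p = 0.00211), and both calls held without each mouse. The lowest called ratios, named after their values were seen, were those of TRBV26 with TRBJ2-3 in CD8+ dLNs (-0.71, adjusted p = 0.000351) and tumors (-0.63, adjusted p = 0.00198), which held as well, and that of TRBV14 with TRBJ2-3 in CD4+ dLNs (-0.65, adjusted p = 0.0154), which did not (adjusted p up to 0.0954).

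TRBV1 took opposite signs with the segments where both were called, and 5 of its 6 calls were lost with 1 mouse left out. In CD4+ dLNs it was at -0.27 with TRBJ2-3 and 0.28 with TRBJ2-4, each with an adjusted p of 0.0114 that rose to 0.0591 and 0.0524 without 1 mouse. In CD8+ dLNs it was at 0.15 with TRBJ2-3 (adjusted p = 0.0280, up to 0.102 without 1 mouse), opposite to TRBJ2-4. The difference between TRBJ2-3 and TRBJ2-4 was not tested for any V segment.

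**Figure D4:**
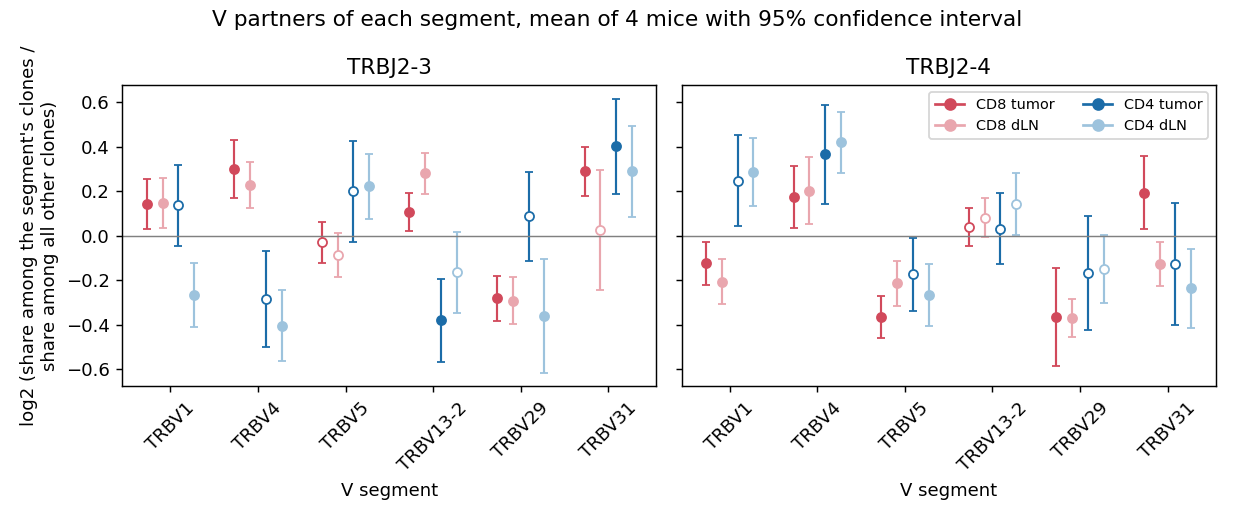
Log2 ratio (y axis) of the share of a V segment among the distinct clones of TRBJ2-3 (left panel) or TRBJ2-4 (right panel) to its share among all other clones, for the 6 V segments called in at least 3 groups with either segment (x axis), as the mean of 4 mice with its 95% confidence interval and filled where called. TRBV4 lies above 0 in all groups with TRBJ2-4, and TRBV1 lies on opposite sides of 0 with the 2 segments in both dLNs.

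CDR3s with TRBJ2-3 were longer than those with TRBJ2-4, and both segments had longer CDR3s in CD8+ than in CD4+ T cells and in tumors than in dLNs. Over distinct clones TRBJ2-3 averaged 44.5 bases ± 0.0418 in CD8+ tumors, 44.1 ± 0.0866 in CD8+ dLNs, 43.3 ± 0.17 in CD4+ tumors and 42.9 ± 0.109 in CD4+ dLNs. In CD8+ T cells TRBJ2-2 averaged 44.4 ± 0.112 in tumors and 44.1 ± 0.134 in dLNs, and was the longer one in 2 of 4 mice in each. TRBJ2-4 averaged 42.9 ± 0.0337, 42.6 ± 0.0915, 42.3 ± 0.226 and 41.7 ± 0.18 in the same order. The most frequent length was 15 codons for TRBJ2-3 and 14 for TRBJ2-4 in all 4 groups, with 32.7% and 31.1% of clones in CD8+ tumors.

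Both sides of the distribution differed between the subsets. CDR3s of 16 codons made up 23.1% of TRBJ2-3 clones in CD8+ tumors and 15.7% in CD4+ tumors, and those of 13 codons 9.21% and 14.6%. For TRBJ2-3, CD8+ minus CD4+ was 1.11 bases in tumors (adjusted p = 1.63e-26) and 1.22 in dLNs (adjusted p = 4.80e-30). For TRBJ2-4 it was 0.60 (adjusted p = 2.40e-11) and 0.91 (adjusted p = 9.55e-21). Tumor minus dLN was 0.33 (adjusted p = 1.43e-04) in CD8+ and 0.44 (adjusted p = 4.89e-07) in CD4+ T cells for TRBJ2-3, and 0.26 (adjusted p = 0.00215) and 0.57 (adjusted p = 5.42e-10) for TRBJ2-4. The tumor to dLN comparisons called 100% of J segments in both subsets, the CD8+ to CD4+ comparisons 75% in tumors and 83.3% in dLNs. limma took the spread of the lengths as 1 value for all J segments (0.115 bases), which makes these p-values small. In the exact two-sided permutation test over 70 regroupings, which cannot go below 0.0286 before adjustment, the adjusted p was 0.0312 and 0.0381 for tumor minus dLN in CD8+ and CD4+ T cells, 0.0381 for CD8+ minus CD4+ in dLNs and 0.0571 in tumors, alike for both segments. The tumor to dLN difference of TRBJ2-4 was smaller in CD8+ than in CD4+ T cells, by -0.31 (adjusted p = 0.0499), beside 16.7% of J segments. This comparison was added after the data were seen, and its call was lost without mouse 6, 7 or 8 (adjusted p = 0.2, 0.201 and 0.245). For TRBJ2-3 the same difference was -0.11 (95% interval -0.34 to 0.12).

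**Figure D5:**
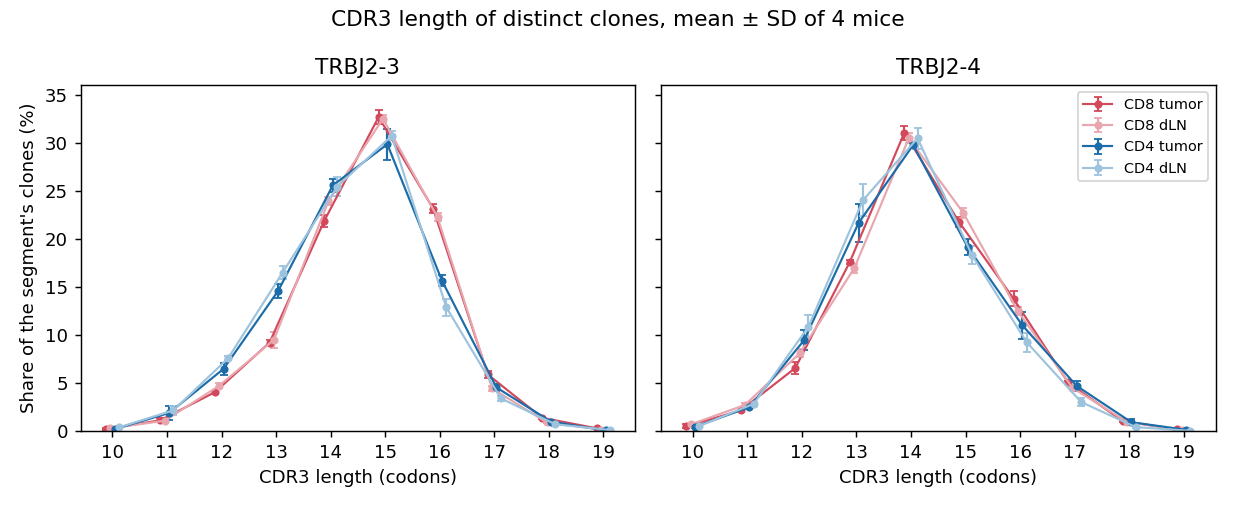
Share of the distinct clones of a segment (y axis, percent) by CDR3 length in codons (x axis) for TRBJ2-3 and TRBJ2-4 in the 4 groups, as the mean of 4 mice with SD bars. TRBJ2-3 peaks at 15 codons and TRBJ2-4 at 14, and the CD8+ curves lie to the right of the CD4+ curves.

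Weighted by reads, the length followed the large clones. TRBJ2-3 CDR3s in CD8+ tumors averaged 40.4, 43.2, 44.2 and 41.6 bases per read in mice 5 to 8, against 43.9 to 44.1 in CD8+ dLNs. Mouse 5, whose 2 leading clones had 13 codons, was lowest, and mouse 7, which had 0 clones above 1%, was highest.

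TRBJ2-3 clones kept more of their segment than TRBJ2-4 clones. The bases from the J start to the end of CDR3 numbered 20.2 for TRBJ2-3 and 19.1 for TRBJ2-4 in CD8+ tumors and 19.9 and 18.8 in CD4+ dLNs. All 21 germline bases were kept in 44.4% ± 1.12 of TRBJ2-3 clones and 35.4% ± 0.364 of TRBJ2-4 clones of CD8+ tumors, ranks 2 and 4 of the 12 J segments. In CD4+ tumors all 21 were kept in 42.1% ± 0.546 of TRBJ2-3 and 35.1% ± 1.83 of TRBJ2-4 clones. The count of bases from the J start includes those placed before the annotated start. By that count CD8+ clones had more J bases than CD4+ clones. For TRBJ2-3 the difference was 0.18 bases in tumors (adjusted p = 5.24e-04, but 0.0571 by the exact permutation test) and 0.30 in dLNs (adjusted p = 9.62e-07), beside 58.3% and 66.7% of J segments. For TRBJ2-4 it was 0.13 (adjusted p = 0.0313) and 0.29 (adjusted p = 1.36e-05), and the tumor value was not called without mouse 5 (0.05, adjusted p = 0.396) or mouse 6 (adjusted p = 0.148) or by the exact permutation test (adjusted p = 0.147). Of the tumor to dLN differences, that of TRBJ2-4 in CD4+ T cells was 0.13 (adjusted p = 0.0333), beside 58.3% of J segments. It was not called without mouse 6 (adjusted p = 0.0627), mouse 7 (adjusted p = 0.212) or mouse 8 (adjusted p = 0.122), or by the exact permutation test (adjusted p = 0.196). The other 3 were -0.05 and -0.03 in CD8+ T cells for TRBJ2-3 and TRBJ2-4 (adjusted p = 0.592 and 0.638, beside 33.3% of J segments) and 0.07 in CD4+ T cells for TRBJ2-3 (adjusted p = 0.2). Between the subsets these differences did not pass the test (adjusted p = 0.227 for TRBJ2-3 and 0.130 for TRBJ2-4, beside 8.33% of J segments), though that of TRBJ2-4 did without mouse 5 (adjusted p = 0.00334).

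Among clones with an assigned D segment, TRBD2 was named in 64.8% ± 0.637 of TRBJ2-3 and 63.9% ± 0.626 of TRBJ2-4 clones of CD8+ tumors and in 56.5% ± 0.405 and 57.4% ± 1.77 of CD4+ dLNs. No D segment was named in 15.3% to 26.4% of clones over segments and groups.

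Tumor clones of the segments that were also found in a dLN of the same mouse were few in number and held a larger share of the reads. For TRBJ2-3 in CD8+ tumors such clones were 7.24% ± 0.945 of clones and held 63.0% ± 30.5 of reads, from 22.4% in mouse 7 to 90.3% in mouse 5. For TRBJ2-4 they were 7.63% ± 1.04 of clones and held 40.5% ± 14.5 of reads. Among the 12 J segments TRBJ2-3 ranked 8 by clones and 8 by reads, and TRBJ2-4 ranked 7 and 12. In CD4+ tumors such clones were 27.0% ± 2.36 and 28.0% ± 4.64 of clones and held 64.3% ± 3.57 and 73.4% ± 2.61 of reads. The ranks of TRBJ2-3 and TRBJ2-4 there were 7 and 4 by clones and 11 and 4 by reads. Clones present in the left as well as the right tumor held 49.5% to 93.1% of TRBJ2-3 reads and 40.5% to 77.8% of TRBJ2-4 reads in CD8+ T cells, and 78.4% to 86.0% and 83.6% to 94.3% in CD4+ T cells.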

How the data were processed

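TCRβ cDNA was made from poly(A) RNA of sorted T cells by template switching, without molecular identifiers, so intervals and floors cover counting error only. The authors trimmed reads with Cutadapt 3.2 (version from the submitters' processing notes), filtered them with PRINSEQ, assigned V, D, J and CDR3 with MiXCR against IMGT segments, and tabulated clones with VDJtools. Each deposited table gives the read count of every clone, its fraction of the library's reads, and alignment positions of V, D and J within the CDR3, as computed by the authors. The tables precede the authors' down-sampling. Reads were therefore drawn here without replacement, with a fixed seed, to 6 per sorted cell (cell numbers from the study), from 326582 to 4840722 deposited reads to 131070 to 2035380. Shares of reads are thus shares of the drawn counts.

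Clones of 1 read were kept (3.10% to 11.2% of the segments' clones). Fragments were added, left and right sides averaged, and 4 mice per group compared with limma 3.58.1 (R 4.3.3) over 12 J segments, without a block. V partners were tested over all V-J pairs of a group with 20 or more expected clones, as log2 ratios with 0.5 clones added. P-values were adjusted by Benjamini and Hochberg with a threshold of 0.05. The mouse number marks the same animal in all groups, so it pairs the groups. Deviations from the group means correlated at a mean r of 0.1908 within mice and -0.0628 between mice for the share of distinct clones, 0.1377 and -0.0483 for CDR3 length, and 0.0871 and -0.0234 for J bases. On estimated cells (reads divided by 6) the widest 95% Wilson half-width was 0.113 percentage points for a named clone and 0.387 for a segment, and the floor was 3 reads. The scripts were tested on simulated data. Python 3.11.15, pandas 2.3.3, numpy 2.4.6, statsmodels 0.14.6 and matplotlib 3.10.9 were used.

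Named were the clones of the segments above 1% of reads in a tumor, the highest clone per subset, mouse and tissue, the 3 leading V segments per group and those called in at least 3 groups, the 3 CDR3s found in most samples of a subset, and the 2 J segments with the most similar clone shares. Where these were many, they are given by counts and ranges. The CDR3s shared by abundant clones of several mice were chosen after their values were seen, as were the tests of the tumor to dLN difference between subsets for CDR3 length and J bases. The segments and lists were chosen with earlier results of these data known.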

Additional observations from a re-analysis of the deposited data

Results flagged for a closer look

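In CD8+ dLNs the share of distinct clones with TRBJ2-3 was 9.02% in mouse 8, apart from the 8.44%, 8.44% and 8.47% of mice 5 to 7. The gap to the nearest mouse was 0.942 of the range, above Dixon's 95% critical value for 4 values. Without mouse 8 the CD8+ minus CD4+ dLN difference of TRBJ2-3 kept its direction.

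In the same tissue the mean CDR3 length of TRBJ2-4 clones was 42.49 bases in mouse 5, below the 42.66, 42.66 and 42.69 of mice 6 to 8, with a gap of 0.854 of the range. Among CD8+ dLNs of different mice, the left one of mouse 5 and the right one of mouse 8 had the most clones in common. With those clones left out the TRBJ2-3 share of distinct clones of mouse 8 was 9.14% (left dLN, not one of the pair) and 8.91% (right dLN). The TRBJ2-4 length of mouse 5 was 42.47 bases in its right dLN, which is not one of the pair, and 42.51 in its left dLN. Of 32 groups tested, 2 had such a value, and chance gives about 1 in 20.

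The tumor to dLN difference of the TRBJ2-3 share of distinct clones differed between CD8+ and CD4+ T cells by 0.12 on the log2 scale (adjusted p = 0.0123, limma). That of the TRBJ2-4 CDR3 length differed by -0.31 bases (adjusted p = 0.0499, limma). Both calls were lost without mouse 6 or mouse 7, and the second also without mouse 8.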

How the results depend on the processing

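Of the recomputed values of the comparisons, 558 kept their direction and their side of the threshold (or stayed within 1.5 times for a count and within the spread for a range), 31 lost a call, 10 gained one, 27 counts or ranges moved further, and 0 were reversed. With the mouse as a replicate block, which follows from the pairing of groups by animal, 29 of 30 results kept their call, and TRBJ2-3 in CD8+ minus CD4+ tumors became called (0.0558, adjusted p = 0.0285). The causes of the changes were not tested.

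For the share of distinct clones (log2), that difference was also called with at least 6 reads per clone (0.0819, adjusted p = 0.0252), at equal depth (0.0812, adjusted p = 0.0208), with clones by amino acid sequence (0.0634, adjusted p = 0.0366) and with both sides joined (0.0619, adjusted p = 0.0353), and ranged from 0.0334 to 0.0745 with 1 mouse left out. TRBJ2-4 in CD4+ tumor minus dLN was called with at least 6 reads (-0.0856, adjusted p = 0.0113) and sides joined (-0.0612, adjusted p = 0.0208), and ranged from -0.0563 to -0.0259 with 1 mouse left out. TRBJ2-3 in CD4+ tumor minus dLN was not called by the exact permutation test (-0.15, adjusted p = 0.0686). TRBJ2-3 in CD8+ minus CD4+ dLNs was not called by the exact permutation test (-0.0659, adjusted p = 0.0623), with at least 6 reads (-0.0289, adjusted p = 0.414), at equal depth (-0.0593, adjusted p = 0.0896) or without the libraries that shared clones (-0.0659, adjusted p = 0.0598), and ranged from -0.0867 to -0.0464 with 1 mouse left out. The TRBJ2-3 difference between subsets ranged from 0.0887 to 0.16 with 1 mouse left out.

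For CDR3 length, CD8+ minus CD4+ tumors was not called by the exact permutation test for TRBJ2-3 (1.11 bases) or TRBJ2-4 (0.60, adjusted p = 0.0571 for both). The TRBJ2-4 difference between subsets was not called with at least 2 reads (-0.28, adjusted p = 0.0985) or 6 reads (-0.24, adjusted p = 0.18), with reads as deposited (-0.29, adjusted p = 0.0751), at equal depth (-0.29, adjusted p = 0.0781) or without clones at least 100 times more frequent elsewhere (-0.31, adjusted p = 0.0531), and ranged from -0.36 to -0.27 with 1 mouse left out.

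For J bases, TRBJ2-4 in CD4+ tumor minus dLN was not called by the exact permutation test (0.13, adjusted p = 0.196), with at least 6 reads (0.12, adjusted p = 0.0958) or with reads as deposited (0.11, adjusted p = 0.0685), and ranged from 0.0918 to 0.17 with 1 mouse left out. In CD8+ minus CD4+ tumors the exact permutation test did not call TRBJ2-3 (0.18, adjusted p = 0.0571) or TRBJ2-4 (0.13, adjusted p = 0.147), and TRBJ2-4 was not called with at least 6 reads (0.13, adjusted p = 0.0504) or sides joined (0.0858, adjusted p = 0.217), ranging from 0.0533 to 0.20 with 1 mouse left out. Its difference between subsets ranged from -0.26 to -0.11.

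The range between mice of the share of reads, in percentage points, was 1.15 for TRBJ2-3 in CD8+ dLNs without the libraries that shared clones and 0.126 to 0.589 with 1 mouse left out, and 0.249 to 0.636 for TRBJ2-3 in CD4+ dLNs. For TRBJ2-4 in CD8+ dLNs it was 0.244 without the clones in common, 0.244 without those libraries, 0.466 without the highest clone and 0.607 to 1.31 with 1 mouse left out. For TRBJ2-4 it was 3.79 in CD4+ tumors without the highest clone, with 3.53 to 9.03 on leaving out 1 mouse, and 1.74 to 3.11 in CD4+ dLNs. The values without the highest clone are shares of all reads, with that clone still in the total.

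V partners called in CD4+ tumors were 4 for TRBJ2-3 at equal depth and 4 with at least 2 reads (1 to 2 with 1 mouse left out), and for TRBJ2-4 0 with a minimum of 5 expected clones and 2 at equal depth (0 to 1). In CD4+ dLNs they were 2 to 4 for TRBJ2-3 and 2 to 5 for TRBJ2-4 with 1 mouse left out. In CD8+ dLNs TRBJ2-4 had 6 with at least 6 reads and 5 to 8 with 1 mouse left out.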
